A study of Homo sapiens with 30 samples.

Results

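The genes described here are 9 regulators and markers of the first endodermal and mesodermal lineages of the embryo, read in human naive and primed pluripotent stem cells. They were chosen by symbol, as the count tables list them: GATA4, GATA6, SOX17, FOXA2, PDGFRA and HNF4A for the hypoblast, and EOMES, MIXL1 and GSC for the mesendoderm. They are 9 of the 28307 genes listed for each of 30 libraries, and all 9 passed the filter on low counts in every comparison. The label says what the genes are known for, and no sorted hypoblast or mesendoderm cells were in the series.

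The series asked what the long noncoding RNAs XIST and XACT, and SPEN, a repressor protein that binds XIST, do in naive cells. All libraries were made from H9, an established line of human embryonic stem cells, as ribosome-depleted, strand-specific total RNA. Naive cells grew on inactivated mouse embryonic fibroblasts, in PXGL medium (inhibitors of MEK, tankyrase and PKC, with LIF) unless stated otherwise, and mouse reads were removed computationally. There were 10 groups of 3 libraries. PXGL WT was wild type, and XIST KO was a single homozygous XIST knockout clone whose 3 libraries were technical replicates. CRISPRi UT and CRISPRi Dox were 3 clones with an inducible dCas9-KRAB repressor and a guide at the XIST promoter, without and with doxycycline. A doxycycline group without the guide was not analysed here, so the drug and the repression of XIST cannot be told apart. Naive PXGL cells received a scrambled siRNA (siScr) or one of the anti-SPEN siRNA mixes (siSPEN1, siSPEN2). NaiveCult WT was wild type in NaiveCult medium, XACT KO was the same kind of cells in 3 clones lacking the XACT start sites, and Primed WT was wild type, kept on Matrigel in mTeSR1. The study describes its RNA-seq libraries as 3 biological replicates, apart from those of XIST KO. Apart from the clones, the labels do not say how libraries of a group were kept separate. The p-values measure the spread between these libraries, which is technical in XIST KO.

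The hypoblast, or primitive endoderm, is the extraembryonic layer that separates from the pluripotent epiblast in the blastocyst, and GATA6, GATA4, SOX17, FOXA2 and HNF4A are transcription factors of that layer and of its derivatives. PDGFRA is a receptor tyrosine kinase of early hypoblast that many fibroblasts also carry. Mesendoderm arises later, at the primitive streak, under NODAL and WNT signals, where the T-box factor EOMES and the homeobox factors MIXL1 and GSC are switched on.

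Promoter sequence was read from RefSeq (GRCh38.p14) as the 250 bases before the start site, for HNF4A, MIXL1 and GATA6, members that many of the comparisons turn on. Capitals mark matches to the motifs searched on both strands. HNF4A has a pair of annotated start sites, at the 3′ ends of chr20:44355449-44355698 and chr20:44400989-44401238 (plus strand). The first window holds a GATA motif (AGATAA) starting 26 bases before the start, and the second a GATA motif (TGATAA) at 198 bases and a homeodomain motif (TAATTA) at 159 bases. The window of MIXL1 (chr1:226223414-226223663, plus strand) holds a FOXH1 motif, AATCCACA, read on the minus strand as TGTGGATT, at 249 bases, and that of GATA6 (chr18:22169339-22169588, plus strand) holds no motif searched.
HNF4A, first start: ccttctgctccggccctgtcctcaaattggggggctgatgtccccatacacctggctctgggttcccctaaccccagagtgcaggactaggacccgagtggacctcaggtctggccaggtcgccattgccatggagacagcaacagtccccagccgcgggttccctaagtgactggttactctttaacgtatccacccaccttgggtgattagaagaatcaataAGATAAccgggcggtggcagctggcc
HNF4A, second start: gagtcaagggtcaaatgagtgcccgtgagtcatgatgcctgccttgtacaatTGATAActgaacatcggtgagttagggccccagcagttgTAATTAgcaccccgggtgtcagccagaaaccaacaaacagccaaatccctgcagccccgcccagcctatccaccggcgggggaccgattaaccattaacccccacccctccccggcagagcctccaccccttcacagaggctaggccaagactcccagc
MIXL1: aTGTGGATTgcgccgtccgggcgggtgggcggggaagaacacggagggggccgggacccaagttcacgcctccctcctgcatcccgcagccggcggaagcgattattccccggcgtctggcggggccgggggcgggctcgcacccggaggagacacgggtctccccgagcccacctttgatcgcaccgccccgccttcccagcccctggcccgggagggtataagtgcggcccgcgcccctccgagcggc
GATA6: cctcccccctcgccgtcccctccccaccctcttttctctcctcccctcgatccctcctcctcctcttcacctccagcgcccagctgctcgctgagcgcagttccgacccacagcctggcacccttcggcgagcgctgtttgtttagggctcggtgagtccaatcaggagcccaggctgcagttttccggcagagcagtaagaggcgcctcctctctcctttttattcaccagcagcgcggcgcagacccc
Among 27305 promoter windows of the same length, 22.9% hold a GATA motif: AGATAA is one of its spellings, TGATAA another, and either may also end in G. The homeodomain motif (TAATTA, or with its last pair of bases as CC) is in 9.75% of windows, and the FOXH1 motif (AATCCACA, also searched as AATACACA) in 1.33%. The FOXA motif (TGTTTAC, or with G as its next to last base), the T-box motif (TCACACCT) and the TATA motif (TATAAA) are present in 6.05%, 0.787% and 11.1% of windows, and have no match in these 4. The window of MIXL1 has 30 CG dinucleotides and that of GATA6 16, against 8 in each HNF4A window and a median of 11 over all. A motif match is a description of letters, and counts per gene do not separate the HNF4A start sites.

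Total counts per library ranged from 31.2 to 65.6 M. SPEN was at 330 ± 46.3 CPM (counts per M of the library total, M being 1000000; mean ± SD, n = 3) in siScr, 163 ± 13 in siSPEN1 and 157 ± 8.28 in siSPEN2, and XACT was at 1.71 ± 0.525 in NaiveCult WT and 0.0669 ± 0.0627 in XACT KO. All 13 naive markers tested were higher in both naive wild types than in Primed WT, and 11 of 11 primed markers were lower in NaiveCult WT and 10 of 11 in PXGL WT. PXGL WT, XIST KO and the CRISPRi groups carry one library code, the siRNA groups another, and Primed WT, NaiveCult WT and XACT KO one of their own. Code and culture cannot be told apart where PXGL WT is set against Primed WT or NaiveCult WT.

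The members were transcribed at very unequal levels in naive cells. Per kilobase of exon (RPKM over the GENCODE 44 exon union), MIXL1 had the highest level in PXGL WT at 16.8 ± 0.513 (SD, n = 3), followed by HNF4A at 4.74 ± 0.228, GATA6 at 3.62 ± 0.0859 and GATA4 at 2.36 ± 0.262. GSC, EOMES, PDGFRA, FOXA2 and SOX17 were between 0.58 and 0.0948 RPKM. In NaiveCult WT the order at the top was different, with GATA6 at 7.63 ± 0.233, HNF4A at 2.42 ± 0.216, MIXL1 at 1.74 ± 0.498 and GATA4 at 1.05 ± 0.0161 RPKM.

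GATA4 (chr8:11676959-11760002, plus strand), a zinc finger factor of hypoblast and heart, ranged over the 27 naive libraries from 4.15 to 27.8 CPM with a median of 13.3, and over the 3 primed libraries from 0.0196 to 0.0457 CPM. CRISPRi Dox had the highest mean (24.1 CPM), then siScr (19.8), siSPEN2 (16.6), siSPEN1 (15.1), XIST KO (13.4), CRISPRi UT (12.2), PXGL WT (10.5), XACT KO (5.01) and NaiveCult WT (4.65). Library ranges of neighbours in this order were apart except for siSPEN2 with siSPEN1, siSPEN1 with XIST KO, and XACT KO with NaiveCult WT. Separate ranges are common in these data, and such orders, here and for the members below, also cross library codes. In the comparisons tested, the share of genes with separate ranges ran from 23.6% (XACT KO against NaiveCult WT) to 89.3% (PXGL WT against Primed WT).

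GATA6 (chr18:22169589-22202528, plus strand), the factor that starts hypoblast specification, was highest in the NaiveCult groups, where GATA4 had its lowest naive means, and lowest in CRISPRi Dox, where GATA4 was highest. Its means ran from XACT KO (33 CPM) and NaiveCult WT (29) through siScr (25.8), siSPEN1 (20.8), PXGL WT (13.8), siSPEN2 (11.3), XIST KO (11) and CRISPRi UT (7.92) down to CRISPRi Dox (3.98). Only siSPEN2 and XIST KO, among these neighbours, had overlapping library ranges. Over all tested genes, ranges were apart for 23.6% between XACT KO and NaiveCult WT, 50.4% between siSPEN1 and siScr and 44.6% between the CRISPRi groups. The 3 Primed WT libraries held 1, 0 and 0 counts.

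HNF4A (chr20:44355699-44432845, plus strand), a nuclear receptor of visceral endoderm and liver, ranged from 22.3 to 70.3 CPM in naive libraries, with a median of 48.7. Its highest means were in CRISPRi Dox (65.5 CPM), siSPEN2 (56.5) and CRISPRi UT (54.5), its lowest naive means in XACT KO (24.8) and NaiveCult WT (24.6), and Primed WT held 2, 3 and 0 counts. The ranges of siSPEN2 and CRISPRi UT, of siScr and PXGL WT, of PXGL WT and XIST KO, and of XACT KO and NaiveCult WT overlapped.

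SOX17 (chr8:54457935-54460892, plus strand) and FOXA2 (chr20:22580998-22585455, minus strand), endoderm factors of the SOX and forkhead families, were near the lower limit of detection. SOX17 was between 0.0566 and 0.817 CPM in naive libraries, or 3 to 32 counts, and every neighbouring pair of naive groups overlapped. FOXA2 was between 0.109 and 1.41 CPM, and siScr (1.12, 1.11 and 1.41 CPM) lay clear of siSPEN2, the next group by mean, as 51.1% of tested genes did. It was not clear of siSPEN1, and all other neighbouring naive groups overlapped.

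PDGFRA (chr4:54229280-54298245, plus strand) was the one member that primed cells also held at the naive level. Its Primed WT libraries were at 2.35, 1.93 and 2.27 CPM, and 18 of 27 naive libraries were above the highest of these. Means ran from 6.64 CPM in XACT KO and 6.15 in NaiveCult WT through CRISPRi Dox (4.98), siScr (4.48), siSPEN1 (3.99), CRISPRi UT (2.53) and XIST KO (2.19) to PXGL WT (1.94) and siSPEN2 (1.88).

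Of the streak factors, MIXL1 (chr1:226223618-226227060, plus strand) had the widest range among naive libraries, from 2.39 to 37.2 CPM with a median of 26.5. CRISPRi UT and siSPEN2 both averaged 35.9 CPM and PXGL WT 34.1, siSPEN1, XIST KO and siScr followed at 29.7, 26.7 and 18, CRISPRi Dox was at 11.8, and XACT KO and NaiveCult WT were at 5.14 and 3.54. EOMES (chr3:27715949-27722711, minus strand) lay between 0.705 and 3.11 CPM and GSC (chr14:94768223-94770113, minus strand) between 0.0549 and 1.05 CPM in naive libraries. The lowest GSC value, from CRISPRi Dox replicate 3, was the only naive library of GSC not above the highest primed one.

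**Figure D1:**
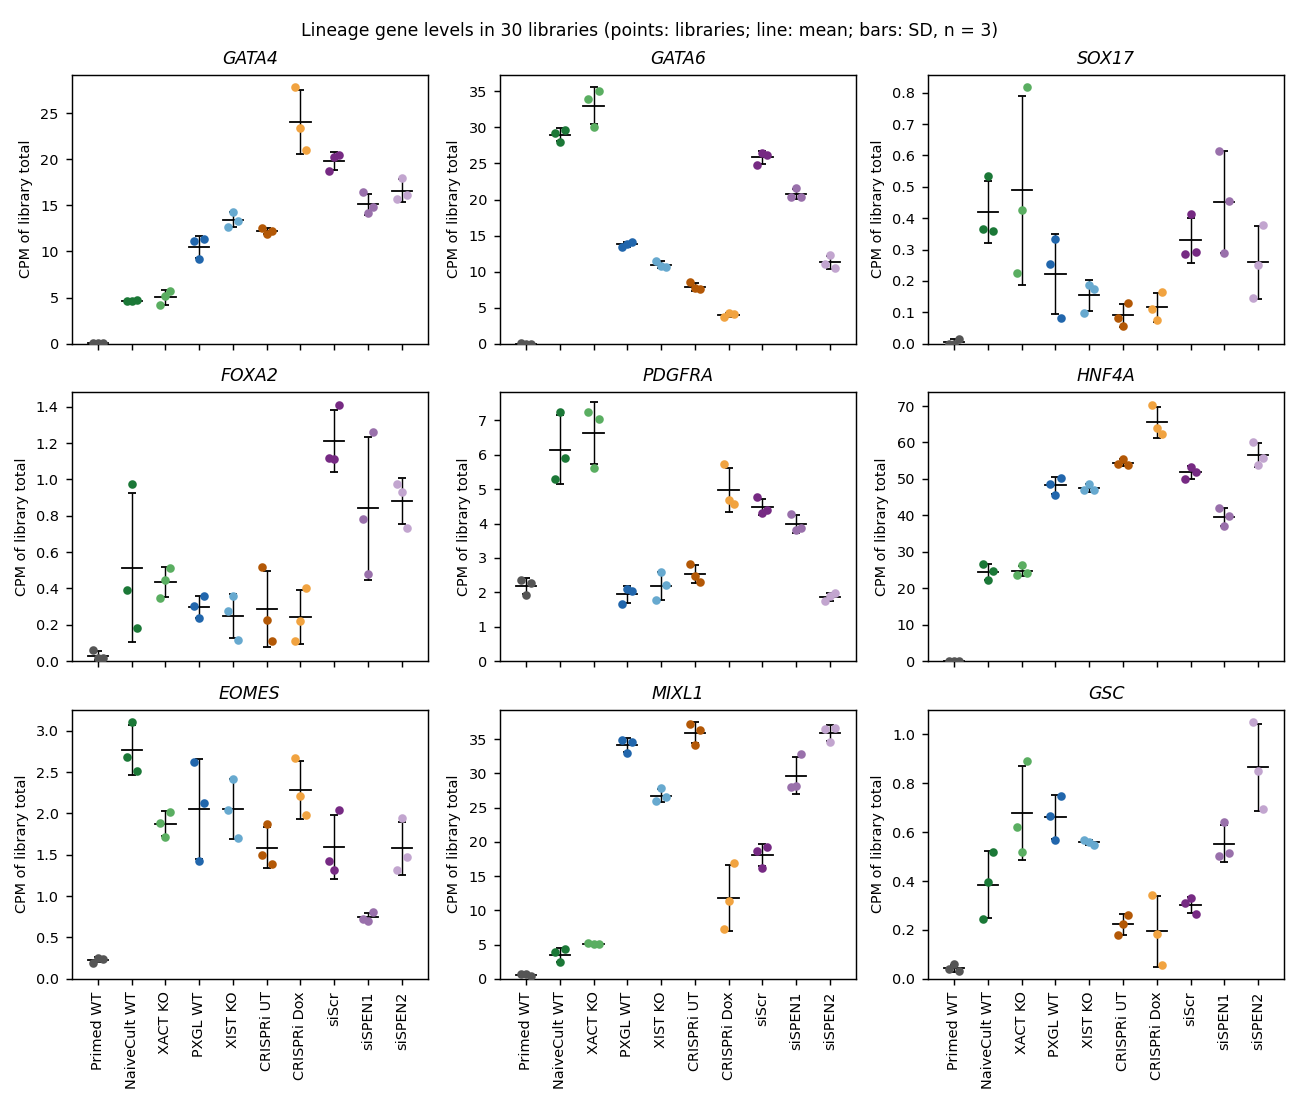
Levels of the 9 lineage genes in 30 libraries, in CPM of the library total on linear axes that start at 0 and differ between panels; points are libraries, lines the mean and bars the SD (n = 3). Among naive groups GATA4 is highest and GATA6 lowest in CRISPRi Dox, and the reverse holds in the NaiveCult groups, while siScr is high for both, MIXL1 is low in CRISPRi Dox and in the NaiveCult groups, and Primed WT is near 0 for all genes except PDGFRA.

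The first comparison set naive against primed cells. Compared with Primed WT, 9 of 9 members were called higher in NaiveCult WT, where 21.1% of 18663 tested genes were, and 8 of 9 in PXGL WT, where 25.8% were. A gene was called when its edgeR adjusted p was under 0.05 and its difference, scaled by TMM, exceeded 1 log2 unit. The comparisons share the Primed WT libraries. The median log2 fold change of the members was 4.14 in NaiveCult WT and 4.86 in PXGL WT, against -0.013 and -0.028 over all genes tested. GATA4, GATA6, SOX17, FOXA2, HNF4A and GSC held at most 3 counts in any Primed WT library. They passed the filter on low counts only through naive libraries, so they could be called higher but hardly lower. The counts of calls and the medians therefore describe the members and are no test of them as a set.

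HNF4A held 1093, 959 and 1099 counts in NaiveCult WT and 3065, 1928 and 3092 in PXGL WT, against 2, 3 and 0 in Primed WT. The groups were far apart, with a log2 difference of 9.71 in NaiveCult WT (SE 0.21, edgeR adjusted p = 3.0e-14) and of 10.74 in PXGL WT (SE 0.2, edgeR adjusted p = 6.1e-15). On the same scale GATA4 rose by 7.07 in NaiveCult WT (SE 0.24, edgeR adjusted p = 3.1e-12) and by 8.30 in PXGL WT (SE 0.23, edgeR adjusted p = 2.4e-13).

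For GATA6 and SOX17 the 3 primed libraries together held 1 count each, so the fitted folds depend on a prior count and the ratio of summed counts per total is given. The ratio of GATA6 was 4852 in NaiveCult WT (95% counting interval 870 to 191676) and 2301 in PXGL WT (412 to 90905). That of SOX17 was 70.3 (12.1 to 2829) and 35.1 (5.91 to 1427). These intervals cover counting error only and are wide because the primed level is barely above 0.

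FOXA2 was at 16, 42 and 8 counts in NaiveCult WT and 19, 10 and 22 in PXGL WT, against 3, 1 and 1 in Primed WT, log2 differences of 4.14 (edgeR adjusted p = 1.3e-04) and 3.43 (edgeR adjusted p = 9.3e-04). Its groups did not overlap, a separation found for 85.4% and 89.3% of tested genes in these comparisons. PDGFRA rose by 1.64 (SE 0.17, edgeR adjusted p = 5.5e-07) in NaiveCult WT, where its libraries were at 5.29, 7.25 and 5.9 CPM. In PXGL WT it was at 1.67, 2.11 and 2.05 CPM, with both higher libraries inside the range of Primed WT, and the log2 difference was 0.03 with a 95% interval of -0.32 to 0.38 (edgeR adjusted p = 0.88). By library totals the PXGL mean (1.94 CPM) was below the primed one (2.19), so the sign depended on the scaling.

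The streak factors were higher in naive cells too. MIXL1 rose from 0.705, 0.652 and 0.396 CPM in Primed WT to 3.9, 2.39 and 4.32 in NaiveCult WT (log2 2.78, SE 0.23, edgeR adjusted p = 4.8e-08) and to 34.8, 32.9 and 34.6 in PXGL WT (log2 6.10, SE 0.21, edgeR adjusted p = 2.2e-12). EOMES rose by 3.71 (edgeR adjusted p = 1.4e-08) and 3.35 (edgeR adjusted p = 4.0e-08), and GSC by 3.28 (edgeR adjusted p = 2.1e-05) and 4.11 (edgeR adjusted p = 7.1e-07).

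**Figure D2:**
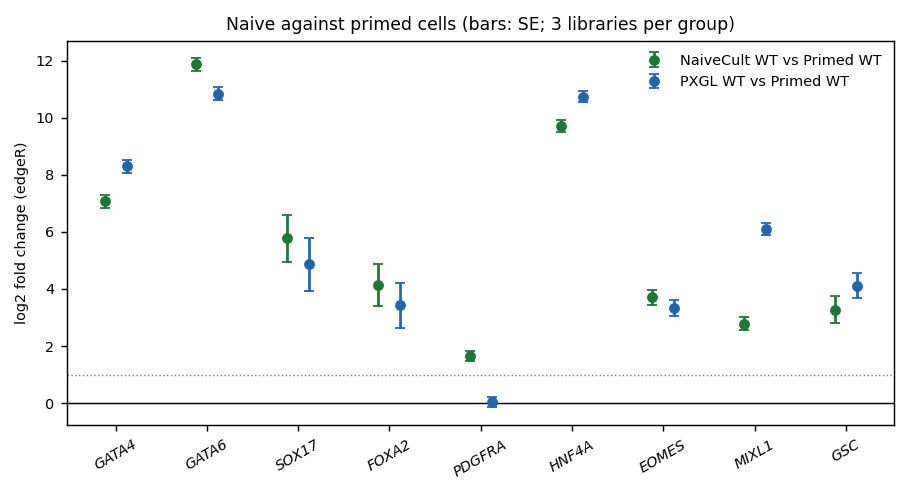
Log2 fold changes of the 9 lineage genes in NaiveCult WT and PXGL WT against the same Primed WT libraries (y axis; points, edgeR estimates; bars, SE; 3 libraries per group). The dotted line marks a log2 fold change of 1, and PDGFRA in PXGL WT, at 0.03, is the only point under it.

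Between the naive cultures, 3 members were called higher in PXGL WT than in NaiveCult WT (16.3% of tested genes were) and 2 lower (11% were). MIXL1 was 10-fold higher (log2 3.32, SE 0.17, edgeR adjusted p = 6.5e-10). GATA4 rose from 4.58, 4.65 and 4.73 CPM to 11.1, 9.15 and 11.3 CPM (log2 1.23, SE 0.12, edgeR adjusted p = 7.3e-07) and HNF4A from 26.7, 22.3 and 24.7 to 48.7, 45.7 and 50.3 CPM (log2 1.03, SE 0.091, edgeR adjusted p = 2.1e-07).

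GATA6 moved the other way, from 29.3, 28 and 29.7 CPM in NaiveCult WT to 13.4, 13.8 and 14.1 in PXGL WT (log2 -1.02, SE 0.086, edgeR adjusted p = 1.3e-07). PDGFRA fell by 1.61 (SE 0.17, edgeR adjusted p = 1.4e-06). These 5 genes did not overlap between the cultures, as 74.4% of tested genes did not. The calls of GATA6 and HNF4A rested on the fold threshold: GATA6 was at -0.98 without PXGL WT replicate 1 and HNF4A at 0.97 without NaiveCult WT replicate 2, with adjusted p of 6.5e-06 and 5.4e-07. By the adjusted p alone 6 members differed, as 70.6% of tested genes did. GSC passed it (log2 0.83, edgeR adjusted p = 0.032) but not in DESeq2 (adjusted p = 0.095). SOX17 (log2 -0.91), FOXA2 (log2 -0.71) and EOMES (log2 -0.36) had edgeR adjusted p of 0.096, 0.23 and 0.14. Without NaiveCult WT replicate 3, FOXA2 (log2 -1.13, edgeR adjusted p = 0.041) and GSC (log2 1.09, edgeR adjusted p = 0.019) would both be called.

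Trophectoderm markers moved with these differences: of 13 tested, 9 were called lower and 1 higher in PXGL WT (11% and 16.3% of all tested genes were). Their summed level was 614 to 748 CPM in NaiveCult WT and 422 to 432 in PXGL WT. TFAP2C, most of the PXGL WT sum, went the other way, from 160 CPM in NaiveCult WT to 354 in PXGL WT. CGA was at 271 and 2.46 CPM. The part of these markers in the levels of the lineage genes was not tested. In bulk RNA fewer cells of a type and less RNA per cell cannot be told apart. Fibroblast markers, of interest for PDGFRA, summed to 49.4 to 71.4 CPM in NaiveCult WT and 45.9 to 53.9 in PXGL WT. Of 14 tested, 9 were called lower in PXGL WT and 3 higher, and LUM, a matrix protein of fibroblasts, was at 4.37 CPM in NaiveCult WT and at 0 counts in PXGL WT. Feeder reads are of mouse origin and were filtered, and the part of fibroblast RNA in PDGFRA was not tested.

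Loss of XIST by deletion and its repression by CRISPRi were the next comparisons. In XIST KO 0 of 9 members were called, where 1.28% of 17286 tested genes were. By edgeR 3 members were at an unadjusted p below 0.05, a threshold for which no share of all tested genes is given. The adjusted p was passed by 2, as by 12.9% of tested genes, and DESeq2 called 0 with 2 past the adjusted p. GATA4 was at 11.1, 9.15 and 11.3 CPM in PXGL WT and 12.7, 14.3 and 13.3 in XIST KO, apart by a log2 difference of 0.34 (SE 0.091, edgeR adjusted p = 0.014). GATA6 went from 13.4, 13.8 and 14.1 to 11.5, 10.8 and 10.6 CPM (log2 -0.33, SE 0.076, edgeR adjusted p = 0.0055).

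Since the XIST KO libraries come from 1 clone, they were also summed to 1 library, an alternative chosen after the data were seen. The adjusted p was then 0.16 for GATA4 and 0.14 for GATA6. GATA4 also missed the threshold without PXGL WT replicate 2 (edgeR adjusted p = 0.084) or XIST KO replicate 2 (0.078). MIXL1 was at 34.8, 32.9 and 34.6 CPM in PXGL WT and 25.9, 27.8 and 26.5 in XIST KO, ranges that did not overlap, as those of 37.2% of tested genes did not. Its log2 difference of -0.36 (SE 0.15) had an edgeR adjusted p of 0.12 with the spread of all 12 libraries and 1.7e-07 with only these 6. The other members had log2 differences from -0.47 (SOX17) to 0.18 (PDGFRA) and adjusted p of 0.56 or more.

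With doxycycline in the CRISPRi clones, 6 of 9 members passed the adjusted p, which 39.6% of tested genes did, and 2 were called lower (1.55%) and 0 higher (2.26%). DESeq2 also called 2. MIXL1 fell from 37.2, 34.2 and 36.3 CPM in CRISPRi UT to 7.32, 11.3 and 16.9 in CRISPRi Dox, 3.09-fold (log2 -1.63, SE 0.16, edgeR adjusted p = 7.3e-08). The treated libraries differed among themselves by more than the untreated ones, but each lay far below them, and leaving out any 1 library gave log2 values between -1.98 and -1.36.

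GATA6 fell from 8.56, 7.68 and 7.53 to 3.68, 4.23 and 4.04 CPM (log2 -1.01, SE 0.086, edgeR adjusted p = 1.5e-08). GATA4 rose from 12.5, 11.9 and 12.2 to 27.8, 23.4 and 21 CPM (log2 0.97, SE 0.087, edgeR adjusted p = 2.8e-08), just under the fold threshold. These related factors, which bind the same motif, moved in opposite directions in the same libraries, with no overlap between groups for either, as for 44.6% of tested genes. The fold threshold alone separated their calls: GATA6 was at -0.95 without CRISPRi UT replicate 1 or CRISPRi Dox replicate 1, and GATA4 at 1.06 without CRISPRi Dox replicate 3.

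PDGFRA rose from 2.83, 2.47 and 2.3 to 5.72, 4.67 and 4.56 CPM (log2 0.96, SE 0.15, edgeR adjusted p = 3.0e-05), and passed a log2 fold change of 1 without CRISPRi UT replicate 1 (1.05), CRISPRi Dox replicate 2 (1.01) or CRISPRi Dox replicate 3 (1.02). HNF4A rose by 0.25 (SE 0.045, edgeR adjusted p = 1.4e-04) and EOMES by 0.52 (SE 0.2, edgeR adjusted p = 0.046). The result for EOMES was lost without CRISPRi UT replicate 1, CRISPRi UT replicate 3 or CRISPRi Dox replicate 1 (edgeR adjusted p from 0.13 to 0.18) and in the fits over 30 or 6 libraries (0.053 in both). SOX17 (log2 0.35), FOXA2 (-0.29) and GSC (-0.16) had adjusted p of 0.69 or more.

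Markers of the naive state and of other cell types were read beside these results. Of 13 naive markers, 1 was called lower and 0 higher with doxycycline, and 3 passed the adjusted p higher and 5 lower (median -0.02). They summed to 6684 to 7088 CPM in CRISPRi UT and 5997 to 6187 in CRISPRi Dox. KLF17 went from 131 to 56.1 CPM and SUSD2 from 901 to 552, while DPPA5 went from 340 to 415 CPM. Of 5 amnion markers, GABRP, VTCN1 and IGFBP3 rose with doxycycline by 3.89, 3.63 and 2.20 on the log2 scale (edgeR adjusted p = 1.7e-06, 5.2e-07 and 1.1e-06), while ISL1 and WNT6 were at -0.14 and 0.17 (edgeR adjusted p = 0.26 and 0.75). The 5 summed to 8.22 to 9.57 CPM in CRISPRi UT and 11.8 to 13.1 in CRISPRi Dox. Of 13 trophectoderm markers, 3 were called higher and 0 lower, where 2.26% and 1.55% of all tested genes were. By the adjusted p alone 5 passed higher and 4 lower, where 39.6% of all tested genes passed, and the median was 0.00. The 13 summed to 364 to 369 and 341 to 350 CPM, of which TFAP2C made up most, at 303 and 276 CPM. The summed fibroblast markers were at 62.2 to 71.7 and 67.1 to 68.8 CPM. What part such cells, or the naive state, had in the change of the lineage genes was not tested.

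The untreated clones already differed from PXGL WT in 3 members by the adjusted p, as 24.9% of tested genes did. GSC was called lower (1.49% of tested genes were), at 0.179, 0.226 and 0.262 CPM in CRISPRi UT against 0.667, 0.569 and 0.748 in PXGL WT (log2 -1.58, SE 0.39, edgeR adjusted p = 0.0056). GATA6 was lower by a log2 difference of -0.79 (SE 0.078, edgeR adjusted p = 8.3e-07) and HNF4A higher by 0.18 (edgeR adjusted p = 0.0066, or 0.058 in a fit over all 30 libraries). For comparison, GATA6 in XIST KO differed from PXGL WT by -0.33, and whether these differences are unequal was not tested. Trophectoderm markers moved beside GATA6: of 13, 1 passed the adjusted p higher and 5 lower in CRISPRi UT (median -0.42), and 1 higher and 6 lower in XIST KO (median -0.40). In XIST KO 12.9% of all tested genes passed. The markers summed to 422 to 432 CPM in PXGL WT, 364 to 369 in CRISPRi UT and 399 to 405 in XIST KO. TFAP2C made up most of each sum, at 354, 303 and 342 CPM. GATA2 and GATA3 were lower by log2 differences of -0.86 and -0.91 in CRISPRi UT (edgeR adjusted p = 2.2e-05 and 2.6e-06) and of -0.71 and -0.62 in XIST KO (edgeR adjusted p = 1.8e-04 and 1.5e-04). Their part in the levels of GATA6 was not tested. SOX17, at 0.0813, 0.0566 and 0.131 CPM in CRISPRi UT, did not pass (log2 -1.24, edgeR adjusted p = 0.12) but would be called without PXGL WT replicate 3 (log2 -1.67, edgeR adjusted p = 0.037).

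The effect of the deletion differed from that of doxycycline for 5 of 9 members by the adjusted p of the interaction, as for 21.8% of tested genes. MIXL1, with an effect of -0.36 in one system and -1.63 in the other, differed by 1.27 (SE 0.21, edgeR adjusted p = 2.6e-04), and it was the only member past the fold threshold (1.32% of genes were called in that direction). For GATA4 and GATA6 the effects had the same signs in both systems and were smaller after deletion, with a difference of -0.63 for GATA4 (SE 0.13, edgeR adjusted p = 0.0012) and of 0.68 for GATA6 (SE 0.12, edgeR adjusted p = 2.7e-04). For PDGFRA and HNF4A the differences were -0.78 (edgeR adjusted p = 0.016) and -0.28 (edgeR adjusted p = 0.0038), and that of PDGFRA had an adjusted p of 0.051 without XIST KO replicate 1. The systems share no libraries.

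Depletion of SPEN was tested with both siRNA mixes against the same siScr libraries. With siSPEN1, 1 member was called lower (2.85% of 16448 tested genes were), 0 were called higher (2.24%), and 5 passed the adjusted p, as 43.7% of tested genes did. With siSPEN2, 2 were called lower (1.7%), 1 higher (2.54%), and 5 passed, as 41.2% did. DESeq2 gave the same numbers of calls and passes.

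GATA6 was at 24.8, 26.5 and 26.2 CPM in siScr, 20.3, 21.6 and 20.4 in siSPEN1 and 11.1, 12.3 and 10.5 in siSPEN2, so that neither mix overlapped siScr or the other mix. Of all tested genes, 50.4% did not overlap between siSPEN1 and siScr, 51.1% between siSPEN2 and siScr and 42.9% between the mixes. On the log2 scale GATA6 fell by 0.31 with siSPEN1 (SE 0.07, edgeR adjusted p = 0.0013) and by 1.20 with siSPEN2 (SE 0.073, edgeR adjusted p = 4.5e-11). GATA4 fell by 0.38 after siSPEN1 (edgeR adjusted p = 4.5e-04) and by 0.26 after siSPEN2 (edgeR adjusted p = 0.0082).

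PDGFRA was nearly level between siScr (4.76, 4.3 and 4.39 CPM) and siSPEN1 (4.29, 3.82 and 3.86 CPM), with a log2 difference of -0.16, a 95% interval of -0.42 to 0.10 and an edgeR adjusted p of 0.36. In siSPEN2 it was at 1.76, 1.88 and 1.99 CPM, and had fallen by 1.26 (SE 0.14, edgeR adjusted p = 3.6e-07). Fibroblast markers summed to 40.3 to 46.3 CPM in siScr, 53.6 to 60.4 in siSPEN1 and 74.5 to 77 in siSPEN2. Single markers went both ways. COL5A1 (17.4, 19 and 29.1 CPM) and MMP2 (8.66, 14.9 and 22.9) rose in this order of groups. COL6A3 (0.283, 0.125 and 0.0853 CPM) and PRRX1 (0.32, 0.22 and 0.0409) fell. Of 7 tested with siSPEN2, 3 passed the adjusted p higher and 1 lower, where 41.2% of all tested genes passed. The part of fibroblast RNA in PDGFRA was not tested here either. HNF4A fell by 0.37 (SE 0.06, edgeR adjusted p = 3.2e-05) with siSPEN1 and was higher by 0.12 (SE 0.059, edgeR adjusted p = 0.12) with siSPEN2.

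MIXL1 rose with both mixes, from 18.6, 16.2 and 19.3 CPM in siScr to 28, 28.2 and 32.8 in siSPEN1 (log2 0.74, SE 0.076, edgeR adjusted p = 8.8e-08) and 36.5, 34.6 and 36.6 in siSPEN2 (log2 0.99, SE 0.074, edgeR adjusted p = 1.2e-09). No treated library overlapped siScr, a separation that 50.4% and 51.1% of tested genes had. The second value fell just short of a call and passed without siScr replicate 1 (1.01), siScr replicate 3 (1.05) or siSPEN2 replicate 2 (1.02). GSC rose with siSPEN2 from 13, 16 and 11 counts to 43, 44 and 33 (log2 1.49, SE 0.33, edgeR adjusted p = 0.0011), and was at 18, 20 and 25 counts in siSPEN1 (log2 0.86, SE 0.36, edgeR adjusted p = 0.056).

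EOMES behaved differently between the mixes. Its libraries were at 1.43, 1.32 and 2.04 CPM in siScr, 0.725, 0.705 and 0.804 in siSPEN1 and 1.32, 1.94 and 1.47 in siSPEN2. It fell by 1.07 (SE 0.26, edgeR adjusted p = 0.0018) with siSPEN1, or by 0.85 without siScr replicate 3, and differed by -0.02 (SE 0.23, edgeR adjusted p = 0.96) with siSPEN2. SOX17 and FOXA2 passed with neither mix, with log2 values of 0.46 and -0.47 for siSPEN1 and -0.35 and -0.47 for siSPEN2, although FOXA2 had an edgeR adjusted p of 0.033 (log2 -0.90) for siSPEN1 without siSPEN1 replicate 3.

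Set against each other, the mixes differed for 5 of 9 members by the adjusted p (34.7% of tested genes did), with 1 called higher (1.57%) and 1 lower (0.93%) in siSPEN2. PDGFRA was lower by a log2 difference of -1.10 (SE 0.14, edgeR adjusted p = 3.6e-06) and GATA6 by -0.89 (SE 0.074, edgeR adjusted p = 6.0e-09). EOMES was higher by 1.06 (SE 0.25, edgeR adjusted p = 0.0026), or 0.88 without siSPEN2 replicate 2, HNF4A by 0.49 (SE 0.06, edgeR adjusted p = 1.6e-06) and MIXL1 by 0.25 (SE 0.072, edgeR adjusted p = 0.01). The result for MIXL1 was lost in a fit over all 30 libraries (edgeR adjusted p = 0.24). For GATA4 the difference of 0.11 had a 95% interval of -0.04 to 0.27 (edgeR adjusted p = 0.28). SPEN itself was at similar levels after both mixes.

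**Figure D3:**
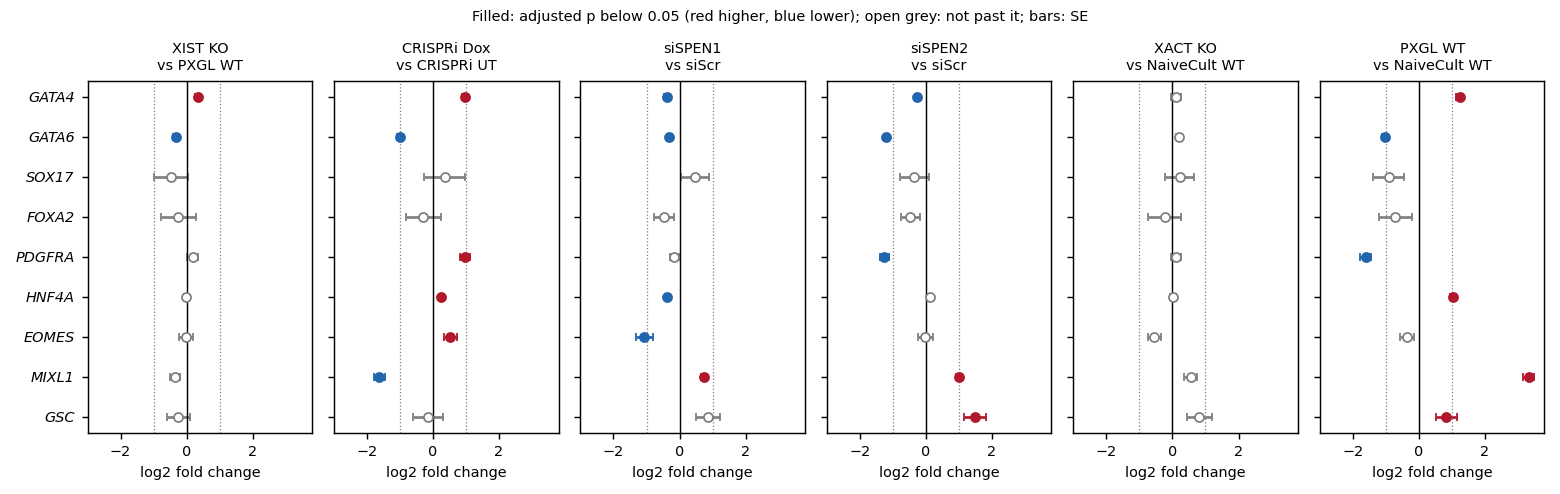
Log2 fold changes of the 9 lineage genes in 6 comparisons (x axis; points, edgeR estimates; bars, SE; 3 libraries per group; dotted lines at -1 and 1). Filled points passed an adjusted p of 0.05 (red higher, blue lower); GATA4 and GATA6 point in opposite directions in XIST KO, CRISPRi Dox and PXGL WT against NaiveCult WT, and the XACT KO panel has no filled point.

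Deletion of the XACT start sites in NaiveCult cells left 0 of 9 members past the adjusted p or called by edgeR, where 0.425% of 16472 tested genes passed and 0.115% were called. At an unadjusted p below 0.05 there were 4, but no share of all tested genes is given for that threshold, so no excess is read from it. DESeq2 passed 0. EOMES was at 2.68, 3.11 and 2.52 CPM in NaiveCult WT and 1.89, 1.72 and 2.02 in XACT KO (log2 -0.55, SE 0.19, edgeR adjusted p = 0.14). MIXL1 was at 3.9, 2.39 and 4.32 against 5.24, 5.05 and 5.13 CPM (log2 0.55, SE 0.19, edgeR adjusted p = 0.15). These ranges did not overlap, as 23.6% of tested genes did not.

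For the hypoblast members the XACT KO intervals were narrow where counts were high. The 95% interval of the log2 difference was -0.16 to 0.20 for HNF4A, 0.03 to 0.36 for GATA6 (edgeR adjusted p = 0.24), -0.18 to 0.41 for GATA4 and -0.18 to 0.42 for PDGFRA. SOX17 (-0.65 to 1.09), FOXA2 (-1.21 to 0.74) and GSC (0.07 to 1.55, edgeR adjusted p = 0.27) had wide intervals at 8 to 42 counts a library.

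Genes known to accompany the members were read from lists. Of 26 other hypoblast genes 22 were tested against Primed WT: 9 were called higher and 8 lower in NaiveCult WT, and 8 higher and 9 lower in PXGL WT, with medians of 0.62 and 0.03. Over all tested genes 21.1% were called higher and 28.4% lower in NaiveCult WT, and 25.8% and 29.1% in PXGL WT. BMP2, a secreted signal, was higher in both (log2 1.43 and 2.87, edgeR adjusted p = 1.4e-07 and 4.9e-11) as was HHEX, a homeobox factor of endoderm (1.99 and 2.60, edgeR adjusted p = 3.5e-09 and 1.3e-10). COL4A1, a basement membrane collagen, was lower in both (-1.20 and -2.13, edgeR adjusted p = 4.4e-09 and 1.0e-11). The largest called changes in NaiveCult WT were those of RSPO3, APOA2, APOA1 and FRZB. Their log2 values were 6.76, 6.64, 3.92 and -2.62 (edgeR adjusted p = 2.2e-08, 9.9e-07, 1.5e-07 and 2.2e-06). AFP was higher in NaiveCult WT too (log2 2.43), whereas APOA1 and AFP were lower in PXGL WT (log2 -6.22 and -6.17, edgeR adjusted p = 4.2e-05 and 2.9e-05).

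Between the naive cultures 4 genes of this list were called higher and 9 lower in PXGL WT, where 16.3% and 11% of all tested genes were. APOA1, an apolipoprotein, was at 9.67 CPM in NaiveCult WT and 0.00542 in PXGL WT (log2 -10.14, SE 0.68, edgeR adjusted p = 1.2e-08), and AFP, alpha-fetoprotein, at 3.33 and 0.0053 CPM (log2 -8.61, SE 0.76, edgeR adjusted p = 1.9e-07). APOA2 and APOB were lower in PXGL WT by log2 differences of -5.58 and -3.53 (edgeR adjusted p = 4.2e-06 and 4.1e-06). APOC1, an apolipoprotein too, was at 52.5 CPM in NaiveCult WT and 41.4 in PXGL WT, with a log2 difference of -0.29 (edgeR adjusted p = 8.1e-04) that was under the fold threshold. The highest group mean of FOXA1, an endoderm factor, was 0.107 CPM, and TTR, transthyretin, was at 0 counts in every PXGL library.

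The hypoblast list had 17 tested genes in the XIST and SPEN comparisons. CER1, a secreted NODAL and BMP antagonist, was called lower with doxycycline (log2 -1.85, SE 0.35, edgeR adjusted p = 2.7e-04), from 1.15, 1.45 and 2.15 to 0.125, 0.705 and 0.531 CPM. It was the only one of the 17 called there, while 6 passed the adjusted p higher and 4 lower, where 39.6% of all tested genes passed. With siSPEN1, RSPO3, a WNT agonist, DAB2, an endocytic adaptor of endoderm, and BMP2 were called lower (log2 -2.50, -1.56 and -1.21, edgeR adjusted p = 0.0077, 7.0e-11 and 7.7e-12). RSPO3 was near the lower limit of detection, at 0.306 CPM in siScr and 0.0499 in siSPEN1. CER1, HHEX and SOX7, the latter an endodermal SOX factor, were called higher with siSPEN2 (log2 2.57, 1.10 and 1.07, edgeR adjusted p = 4.4e-04, 4.7e-09 and 2.0e-04). The rise of CER1 was from 2, 6 and 5 counts in siScr to 15, 27 and 43 in siSPEN2. In XIST KO 0 of 17 and in XACT KO 0 of 22 were called by edgeR (1.28% and 0.115% of all tested genes were). Past the adjusted p were 1 and 0 (12.9% and 0.425% of all tested genes).

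**Figure D4:**
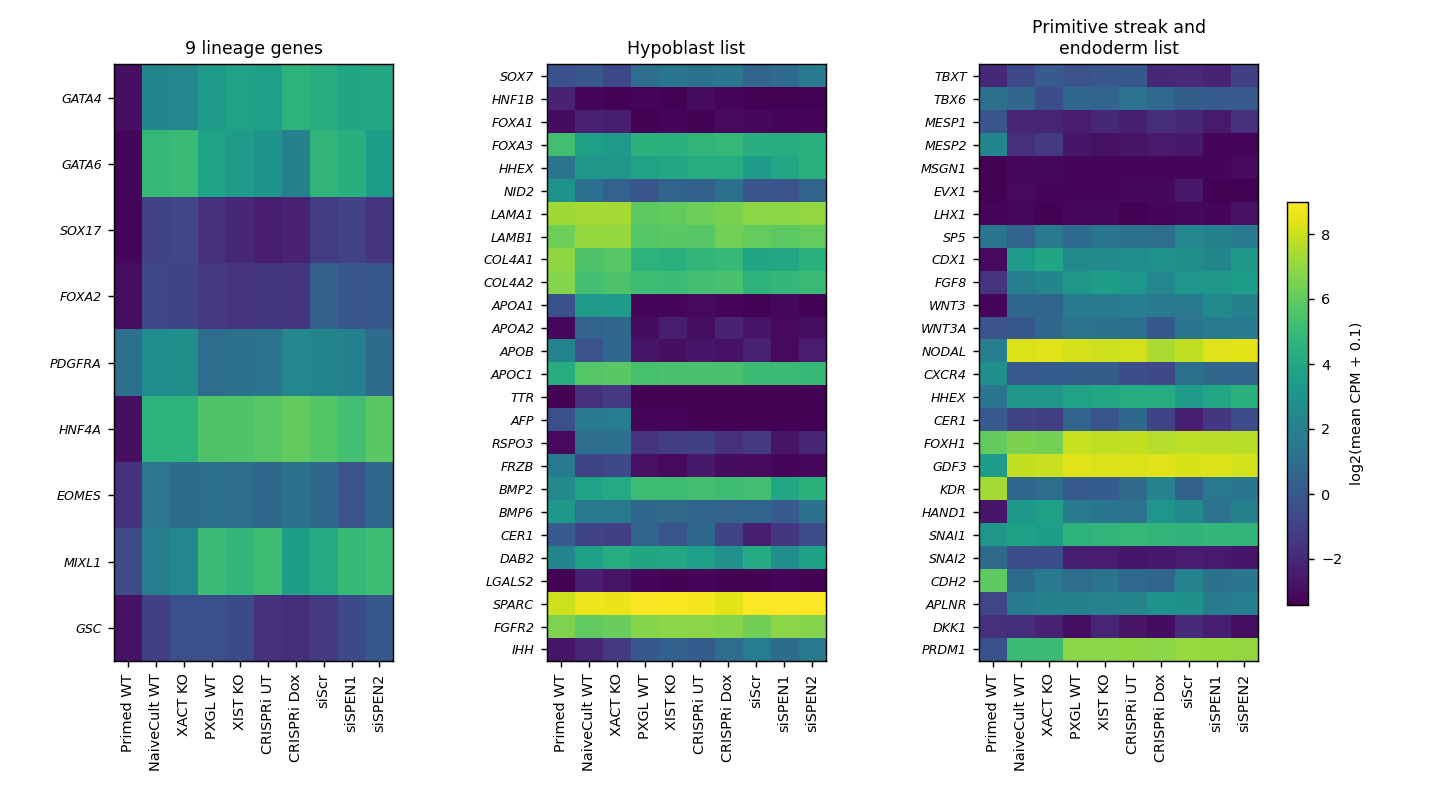
Mean levels in the 10 groups, as the colour of log2(CPM + 0.1), for the 9 lineage genes and for the lists of hypoblast and of streak and endoderm genes (columns, groups; rows, genes; means of 3 libraries). The 9 lineage genes are dark in Primed WT except PDGFRA, whereas the lists hold genes that are brighter there, such as COL4A1 and KDR.

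Of 26 streak, mesendoderm and endoderm genes, 23 were tested against Primed WT. In NaiveCult WT 10 were called higher and 7 lower, where 21.1% and 28.4% of all tested genes were. In PXGL WT 13 were called higher and 7 lower, where 25.8% and 29.1% were. NODAL, the ligand that induces mesendoderm, was higher by 6.55 in NaiveCult WT and 6.51 in PXGL WT (edgeR adjusted p = 4.2e-14 and 3.8e-14), and GDF3, a related ligand, by 4.66 and 5.24 (edgeR adjusted p = 6.2e-15 and 2.2e-15). FOXH1, the partner of SMAD proteins downstream of NODAL, was higher by 0.66, under the fold threshold, and 2.12 (edgeR adjusted p = 3.4e-08 and 1.1e-13). It was higher by 1.46 in PXGL WT against NaiveCult WT (edgeR adjusted p = 2.8e-11). Other genes of the list were lower in both naive cultures. KDR was at 158 CPM in Primed WT, 1.64 in NaiveCult WT and 0.993 in PXGL WT. In the same order CDH2 was at 61.6, 1.85 and 1.94 CPM, and MESP2 at 4.87, 0.208 and 0.0584 CPM.

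TBXT, the T-box factor of the streak, fell with doxycycline from 0.959, 0.754 and 0.993 to 0.125, 0.148 and 0.183 CPM (log2 -2.58, SE 0.36, edgeR adjusted p = 9.9e-06), beside the fall of MIXL1. CER1 and WNT3A (log2 -1.20, edgeR adjusted p = 5.3e-05) were the other genes of this list called lower. HAND1 and KDR, markers of extraembryonic and lateral mesoderm, were called higher (log2 1.76 and 1.32, edgeR adjusted p = 7.3e-08 and 3.0e-06). HAND1 was on the trophectoderm list too, and KDR, at 4.35 CPM in CRISPRi Dox, was at 158 CPM in Primed WT. Over the 19 genes tested 4 passed higher and 9 lower, where 39.6% of all tested genes passed, with a median of -0.21 against -0.001 for all genes. NODAL averaged 169 CPM in CRISPRi Dox and more in CRISPRi UT (log2 -0.77, SE 0.09, edgeR adjusted p = 1.0e-06).

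With siSPEN1, KDR was called higher (log2 1.19, edgeR adjusted p = 5.9e-05) and HAND1 and APLNR, the apelin receptor, lower (-1.23 and -1.11, edgeR adjusted p = 6.1e-07 and 4.3e-07). With siSPEN2, CER1, HHEX and KDR (log2 1.07, edgeR adjusted p = 1.8e-04) were called higher and 0 lower. NODAL was at 235, 236 and 229 CPM in siScr, 347, 345 and 321 in siSPEN1 and 368, 368 and 356 in siSPEN2, and rose with both (log2 0.54 and 0.63, edgeR adjusted p = 1.2e-08 and 1.6e-09), as MIXL1 did.

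Among paralogs of the members, GATA2 and GATA3, GATA factors of trophoblast, were higher in NaiveCult WT (37.9 and 22 CPM) than in PXGL WT (9.3 and 8.86 CPM), by log2 differences of -1.97 and -1.25 for PXGL WT minus NaiveCult WT (edgeR adjusted p = 7.8e-10 and 3.2e-07). GATA6 had the same direction there and GATA4 the other. SOX18 was higher in PXGL WT (log2 4.04, edgeR adjusted p = 1.2e-07) and CSF1R, a receptor related to PDGFRA, lower (log2 -5.76, edgeR adjusted p = 4.6e-11). With doxycycline HNF4G, a paralog of HNF4A, and KIT, a receptor related to PDGFRA, rose (log2 1.09 and 1.21, edgeR adjusted p = 2.1e-05 and 1.5e-06), as did CSF1R, from 0.107 to 0.513 CPM (edgeR adjusted p = 1.6e-04).

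Of 7 noncoding neighbours sought, 4 were listed in the files. GATA6-AS1, which overlaps GATA6 on the opposite strand and was counted by strand, was at 24, 25 and 14 counts in siScr, 6, 4 and 1 in siSPEN1 and 4, 5 and 6 in siSPEN2, and fell by 2.25 with siSPEN1 (SE 0.54, edgeR adjusted p = 0.0019) and by 2.14 with siSPEN2 (SE 0.51, edgeR adjusted p = 0.0018). Whether it fell by more than GATA6 was not tested. In NaiveCult WT GATA6-AS1 was at 58, 70 and 35 counts and in PXGL WT at 9, 10 and 5 (log2 -3.05, SE 0.44, edgeR adjusted p = 5.7e-05), and in Primed WT at 0 in all libraries. LINC00261, a neighbour of FOXA2, was at 9, 9 and 17 counts in NaiveCult WT and 2, 0 and 3 in PXGL WT (log2 -3.04, SE 0.67, edgeR adjusted p = 0.0016). The highest group means of HNF4A-AS1 and GSC-DT were 0.00565 and 0.0308 CPM.

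Of 26 ligands, receptors and nuclear partners of the members, 25 were tested between culture states, and 9 of these were called between PXGL WT and NaiveCult WT. In PXGL WT 7 were higher and 2 lower, where 16.3% and 11% of all tested genes were. Of 24 tested elsewhere, 0 were called by edgeR in XIST KO, with doxycycline or with either SPEN mix. By the adjusted p alone 2 passed in XIST KO (12.9% of all tested genes did) and 16 with doxycycline (39.6%). With each mix 13 passed, where 43.7% of all tested genes did with siSPEN1 and 41.2% with siSPEN2. PDGFA, the main ligand of PDGFRA, was between 54.1 and 101 CPM in the 10 group means and lowest in CRISPRi Dox, while PDGFB was at 2.66 CPM in NaiveCult WT and 0.128 in PXGL WT (log2 -4.32, SE 0.32, edgeR adjusted p = 3.6e-08). ZFPM1, a GATA cofactor, and TCF7L1, a WNT pathway repressor, were higher in PXGL WT than in NaiveCult WT (log2 2.19 and 4.31, edgeR adjusted p = 2.0e-08 and 7.3e-11).

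Pairs of members were compared across the means of the 9 naive groups. On log2 of TMM-scaled CPM with a pseudocount of 0.5, Pearson's r over the 36 pairs ran from -0.83 to 0.93. It was 0.93 for GATA4 with HNF4A, 0.76 for MIXL1 with HNF4A, -0.58 for GATA4 with GATA6, -0.74 for GATA6 with HNF4A and -0.83 for PDGFRA with MIXL1, and weak for others, such as 0.08 for FOXA2 with HNF4A, -0.16 for GATA6 with EOMES and 0.23 for MIXL1 with GSC. For GATA6 with SOX17 it was 0.90, but SOX17 was below 0.5 CPM, the size of the pseudocount, in every group mean. These values describe 9 group means that share library codes, cultures and controls, and carry no test. With Primed WT included r was 0.63 for GATA4 with GATA6 and 0.75 for GATA6 with HNF4A.

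**Figure D5:**
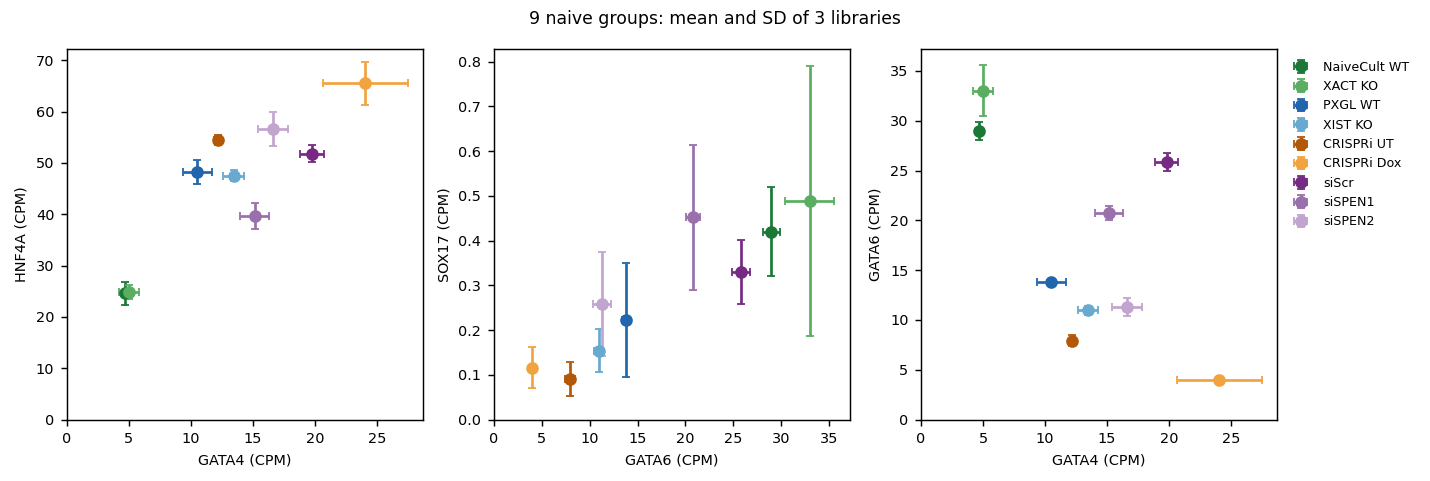
Mean levels of paired genes in the 9 naive groups, in CPM (points, means; bars, SD of 3 libraries). The NaiveCult groups have the lowest GATA4 and HNF4A means, siSPEN1 has less HNF4A (39.7 CPM) than groups with less GATA4 such as PXGL WT (48.2 CPM), and CRISPRi Dox has the highest GATA4 mean (24.1 CPM) with the lowest GATA6 mean (3.98 CPM).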

How the data were processed

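RNA-seq libraries of H9 cells, 3 in each of 10 groups, were analysed from the deposited tables of read counts per gene. Per the labels and the study's methods, the authors trimmed reads with Trim Galore 0.6.5, mapped them with Bowtie 2 to human (hg38) and mouse genomes, removed duplicates with Picard 2.23.5, kept a mapping quality of at least 10, discarded mouse reads with XenofilteR and counted exon reads by strand with HTSeq 0.13.5. The files held counts without the unassigned categories. Duplicate removal lowers the highest counts most.

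Levels are CPM, counts scaled by the library total to a common sum of 1000000. Differences were tested with edgeR 4.0.16 in R 4.3.3 by the quasi-likelihood F test, with TMM scaling, filterByExpr (minimum count 10, minimum total 15) and Benjamini-Hochberg adjustment over all genes tested. One fit covered 12 XIST libraries, another 9 siRNA libraries, another 6 XACT libraries and another 9 libraries for the culture states. SEs were derived from the F statistic, as the absolute estimate over its root, and 95% intervals assume normality. DESeq2 1.42.0, other scalings, filters and fits, a replicate block and leaving out each library were alternatives. The scripts were tested on simulated counts. RPKM used exon lengths of GENCODE 44, and counts were assigned with the authors' annotation, whose exons may differ.

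Groups came from the labels. The 9 genes and all lists were chosen with earlier results of these data known. A rule was set to name, from each list, up to 4 called genes of largest fold change per comparison. It was not followed throughout, and other genes the comparison turned on were named too, chosen after their values were seen. Same-numbered siSPEN1 and siSPEN2 libraries deviated together (correlations 0.415, 0.308 and 0.259 across genes), so the numbers may pair them. The values given come from the fit without a replicate block, and the block left the number of lineage genes called at 2 in that comparison.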

Additional observations from a re-analysis of the deposited data

Results flagged for a closer look

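The results in this section were singled out because the same contrast gave a different effect in a second system, by a test of the difference itself. The effect of XIST deletion minus that of doxycycline in the CRISPRi clones, in log2 units, was 1.27 for MIXL1 (edgeR adjusted p = 2.6e-04), 0.68 for GATA6 (edgeR adjusted p = 2.7e-04), -0.63 for GATA4 (edgeR adjusted p = 0.0012), -0.78 for PDGFRA (edgeR adjusted p = 0.016) and -0.28 for HNF4A (edgeR adjusted p = 0.0038). The effects were -0.36 and -1.63 for MIXL1, -0.33 and -1.01 for GATA6, 0.34 and 0.97 for GATA4, 0.18 and 0.96 for PDGFRA and -0.02 and 0.25 for HNF4A. With the XIST KO libraries summed to 1, the difference for PDGFRA had an edgeR adjusted p of 0.061.

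The effect of siSPEN2 minus that of siSPEN1, against the same siScr libraries, was -1.10 for PDGFRA (edgeR adjusted p = 3.6e-06), -0.89 for GATA6 (edgeR adjusted p = 6.0e-09), 1.06 for EOMES (edgeR adjusted p = 0.0026), 0.49 for HNF4A (edgeR adjusted p = 1.6e-06) and 0.25 for MIXL1 (edgeR adjusted p = 0.01). HNF4A fell with one mix, at -0.37, and was at 0.12 with the other.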

How the results depend on the processing

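Of 1316 fold changes of the 9 lineage genes under alternatives, 1254 kept their direction and their side of an adjusted p of 0.05, 19 lost significance, 6 gained it and 37 changed sign, of which 0 were among the 54 gene and comparison pairs past the adjusted p. With only genes at 1 CPM or more in 3 libraries, fewer genes were tested, and 132 were called in XIST KO, 361 with doxycycline, 170 in CRISPRi UT against PXGL WT, 515 with siSPEN1, 401 with siSPEN2 and 253 between the mixes. GSC was then not tested and 0 lineage genes were called in CRISPRi UT, and 5 in PXGL WT against Primed WT. Summing the XIST KO libraries gave 140 called genes. By the adjusted p alone, all genes and lineage genes past it numbered 2235 and 2 in XIST KO, 6847 and 6 with doxycycline, 4309 and 3 in CRISPRi UT against PXGL WT, 7194 and 5 with siSPEN1, 6771 and 5 with siSPEN2, 5703 and 5 between the mixes, and 3771 and 5 for the difference between XIST systems. For all genes it gave 70 in XACT KO, and 15946, 16335 and 13176 for NaiveCult WT and PXGL WT against Primed WT and for PXGL WT against NaiveCult WT. In XACT KO, 19 genes were called, 68 without a filter and 113 in a fit over 30 libraries. The cause of these shifts was not tested.

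With the replicate block, 51 genes were called in XACT KO, FOXA2 was at -0.07 in place of 0.03 for the difference between XIST systems, and no other count or call of the lineage genes changed. Elsewhere than between the siSPEN mixes, same-numbered libraries did not all deviate together (correlations from -0.514 to 0.234). FOXA2 between the mixes, at about 0, was at -0.0044 with RLE size factors and at -0.01 without a filter, with the CPM filter and with 6 libraries.

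Leaving out 1 library at a time, the lineage genes called numbered 1 to 4 with doxycycline, 1 to 2 in CRISPRi UT, 0 to 1 with siSPEN1 and 1 to 2 between the mixes, and 0 (without XACT KO replicate 1 or replicate 3) to 68 (without NaiveCult WT replicate 1) genes were called in XACT KO. The fold changes of FOXA2 ranged from -0.62 to 0.06 in XIST KO, -0.86 to 0.49 with doxycycline, -0.82 to 0.32 in CRISPRi UT, -0.90 to -0.22 with siSPEN1, -0.24 to 0.43 between the mixes, -0.65 to 0.64 in XACT KO, -1.13 to 0.16 between naive cultures and -0.75 to 0.60 for the difference between XIST systems. Those of EOMES ranged from -0.19 to 0.19 in XIST KO, 0.40 to 0.66 with doxycycline and -0.19 to 0.21 with siSPEN2. GSC ranged from -0.88 to 0.26 with doxycycline, 0.59 to 1.09 between naive cultures and -0.51 to 0.63 between XIST systems, and SOX17 from -1.67 to -0.88 in CRISPRi UT and -0.35 to 0.56 in XACT KO. GATA4 in XIST KO ranged from 0.28 to 0.40, HNF4A from -0.05 to 0.01 there and -0.03 to 0.09 in XACT KO, and PDGFRA from -0.06 to 0.16 in PXGL WT against Primed WT and -0.91 to -0.65 between XIST systems. Scaling by TMM moved 10 of 90 group levels by more than 1 SD, by factors within 0.866 to 1.07. Depth limits SOX17, FOXA2 and GSC, at 61 counts or fewer per library.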

Other observations

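The genes whose group means followed a lineage gene most closely were read by Pearson's r of log2(TMM-scaled CPM + 0.5) over the 10 group means, among 19011 genes. For HNF4A they were LINC01160 (0.997), SPIC (0.997) and HOXB2 (0.996), and over the 9 naive groups r was 0.952, 0.940 and 0.956. For MIXL1 they were LZTS1 (0.991), PLK5 (0.988) and PWWP3A (0.988), and for GATA4 RAB14 (0.991), ATP2B4 (0.990) and SMAP2 (0.990). GATA6 was followed by TMPO (0.990), MRPL12 (0.985) and SEC22B (0.983), EOMES by EHHADH (0.975), SLC25A32 (0.974) and TXNDC12 (0.965), FOXA2 by CPNE8 (0.970), HOXD11 (0.969) and KCTD2 (0.968), and PDGFRA by VPS54 (0.931), AP2S1 (0.931) and AP1M2 (0.923). Means of SOX17 and GSC were under 1 CPM in every group and were not compared. Of each set of 3, at most 1 stayed among the 3 closest by Spearman's rho or over the 9 naive groups, and that only for MIXL1. These values describe 10 means that share library codes and cultures.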
